A study of Homo sapiens with 10 samples.

Results

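Ubiquitin-specific deubiquitinases are the proteases that take ubiquitin off other proteins. Ubiquitin is joined to its targets by a cascade of activating, conjugating and ligating enzymes, and the chains it forms send proteins to the proteasome, sort receptors at endosomes, or change the activity of histones, repair factors and signalling adaptors. Deubiquitinases cut these chains or edit them. Most are cysteine proteases, among them CYLD and the members of the USP, OTU and UCH families. A smaller group, to which STAMBP belongs, are metalloproteases of the JAMM family.

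Their transcripts were measured in HEK293, a human embryonic kidney line, after nuclei had been split into a chromatin pellet extract (CPE, 3 samples) and a soluble nuclear extract (SNE, 3 samples) from biological replicates, per the series' design text. DRB, an inhibitor of transcription elongation, had been given to 2 other chromatin samples and a mock treatment to another 2, and these 4 were not analysed here. All groups come from this single cell line, and no genotype or treatment other than DRB and mock is given for them. The comparison addressed which transcripts are held on chromatin and which have left it. The deposited gene table holds 1 FPKM value (fragments scaled to transcript length and library size) for CPE and 1 for SNE, so replicate spread could not be computed and differences were judged by the q of the authors' Cuffdiff test, with a call at q of at most 0.05.

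Genes were taken by symbol from rows with 1 symbol and a test: USP followed by a number, with an optional X or L, names that start with OTUD, OTUB or UCHL, and BAP1, CYLD and STAMBP. This gave 54 genes of 16699 tested loci with 1 symbol and 192931 tested loci in all. They were 42 genes with USP names, 7 OTU genes, 3 UCH genes (BAP1, UCHL1 and UCHL5), CYLD and STAMBP. The same names occurred in 13 other rows. In 5 of these (OTUB1, UCHL3, USP31, USP4 and USP9X) the row also named other genes, and 8 were not tested. USP48 lay in a region above Cuffdiff's data limit, so its listed 0 is a failed estimate, and USP6, USP26, USP29, USP41, USP50, OTUD6A and the antisense gene UCHL1-AS1 were left untested with at most 0.180 FPKM in either group. As a check of the labels, LIN28B, an RNA-binding protein of fetal tissues known to be expressed in HEK293, had 9.54 FPKM in CPE and 32.3 FPKM in SNE in the authors' deposited table, whereas the kidney developmental factor PAX2 had 0.235 FPKM in CPE and 0.303 FPKM in SNE, the neurofilament gene NEFM at most 0.0755 FPKM and the leukocyte gene PTPRC at most 0.00306 FPKM. The liver gene ALB, a marker of another tissue, had 0.373 FPKM in CPE by the authors' deposited table, above PAX2 there, and was listed at 0 in SNE (called higher in CPE, q = 0.000706). NEAT1, a nuclear scaffold RNA, had 44.6 FPKM in CPE and 4.11 FPKM in SNE there, and GAPDH, a glycolytic mRNA, 261 FPKM in CPE and 1320.1 FPKM in SNE.

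On the authors' scale 47 of the 54 ratios of CPE over SNE were below 0, toward the soluble extract, and 7 were above it. Ratios above 0 made up 13.0% of the members, beside 22.3% of loci with 1 symbol and 9.41% of protein-coding ones. The split is thus not a result about this family. By the authors' q, 22 of the 54 genes were lower in CPE, 0 were higher there and 32 gave no call. Centring the ratios on the median of all loci with 1 symbol put 5 of the 22 (USP27X, USP28, USP39, USP7 and CYLD) on the chromatin side, without a new test. This centre is meant wherever centring is named. On the protein-coding median of -1.38, OTUD7B and USP11 (log2 ratios of -1.35 each) would change sides too. With FPKM of at least 1 in both fractions that median is -1.40, and USP16 (-1.38) would also change sides. At an unadjusted Cuffdiff p under 0.05, 31 were lower in CPE and 0 higher. Among all loci with 1 symbol, 1.71% were higher in CPE and 39.1% lower, and among the protein-coding ones 0.727% and 52.4%. The share of 40.7% for the deubiquitinases is near that of all loci with 1 symbol and below that of protein-coding ones. Neither comparison was tested, so the share is not read as a result about this family. With FPKM of at least 1 in both fractions, 20 of 48 deubiquitinases were lower in CPE, beside 57.8% of protein-coding loci (0.457% higher), a difference that was not tested. Their log2 ratios of CPE over SNE ran between -2.54 and 0.20, with a median of -0.97 and quartiles of -1.42 and -0.53, beside a median of -1.22 over all loci with 1 symbol and -1.38 over the protein-coding ones. Where 0 lies depends on how the authors scaled the libraries. Relative to the shift of -1.22, 35 of the 54 ratios lay above it, toward chromatin, and 19 below it. FPKM is a share of each fraction's fragments, so less RNA of a gene and more RNA of the others cannot be told apart.

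**Figure D1:**
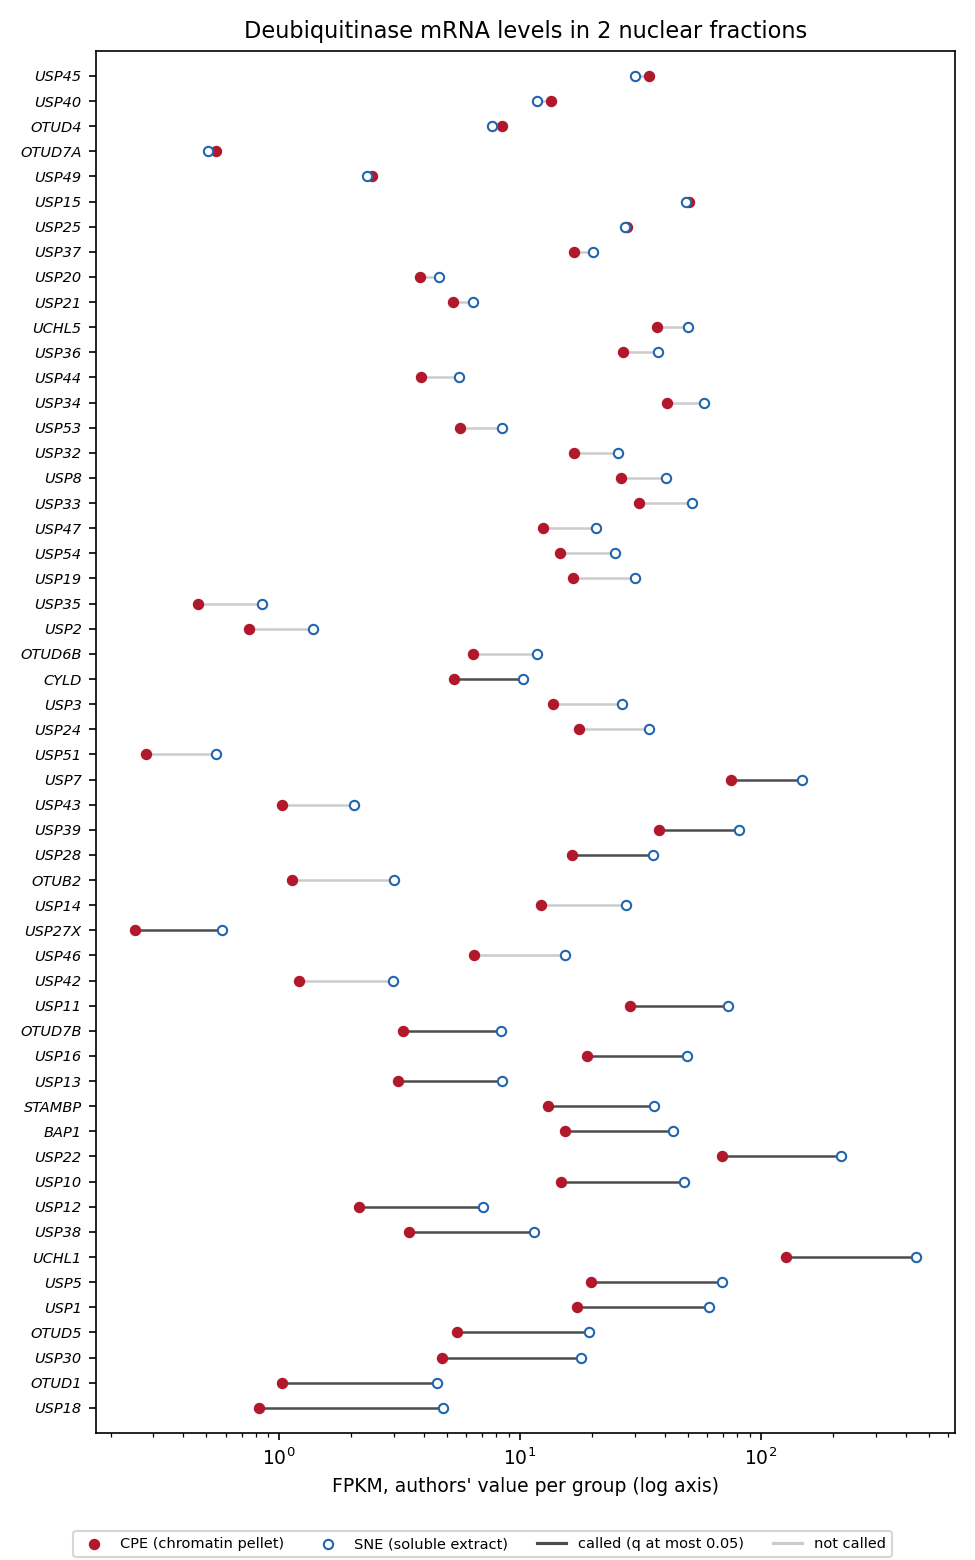
Every deubiquitinase is a row, with its FPKM in CPE (filled) and in SNE (open) on a log axis, joined by a dark line where the authors' test called it, and with the highest ratio of CPE over SNE at the top. In 47 rows the CPE point is left of the SNE point and in the top 7 it is right of it, none of these called. Ratios above 0 make up 13.0% of the members, 22.3% of loci with 1 symbol and 9.41% of protein-coding ones. On ratios centred on all loci with 1 symbol, 35 rows lie on the chromatin side, 5 of them called.

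In abundance the family spanned 0.253 to 127 FPKM in CPE and 0.510 to 440.5 FPKM in SNE, with medians of 12.8 and 20.4 FPKM. FPKM reached 1 in CPE for 48 genes and in SNE for 50, and 29 and 35 genes reached 10 FPKM. The order of the levels was much alike in the fractions (Spearman's rho of 0.94 across the 54 genes, which share the same pair of pooled values). UCHL1 was first in both fractions and made up 13.5% of the summed family FPKM in CPE and 21.6% in SNE. USP15, at rank 4 in CPE and 12 in SNE, made up 5.34% in CPE and 2.40% in SNE. USP45 ranked 8 in CPE and 21 in SNE, and USP25 ranked 11 in CPE and 23 in SNE.

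Of the 10 members with the highest mean FPKM, 6 were lower in CPE and 4 were not called. UCHL1, a ubiquitin hydrolase best known from neurons, where it is among the most abundant proteins, had 127 FPKM in CPE and 440.5 FPKM in SNE by the authors' deposited table (3.46-fold lower in CPE, q = 0.000706; region chr4:41222091-41270472). Regions are those of the table, on hg19, and can hold neighbouring genes. The authors' deposited table gave USP22, the histone deubiquitinase of the SAGA coactivator, 69.4 FPKM in CPE and 216 FPKM in SNE (3.11-fold lower in CPE, q = 0.000706; region chr17:20717933-20947294). USP7, which stabilises MDM2 and p53, had 75.6 FPKM in CPE and 148 FPKM in SNE by the authors' deposited table (1.96-fold lower in CPE, q = 0.0463, just within the threshold; region chr16:8980242-9060847). All these transcripts were lower in CPE than in SNE, UCHL1 and USP22 by more than USP7, whose ratio changed sides on centring. USP39, an inactive relative that is part of the spliceosomal tri-snRNP, had 38.0 FPKM in CPE and 81.0 FPKM in SNE by the authors' deposited table (log2 ratio -1.09, q = 0.00251), and its ratio also changed sides on centring. USP11, linked to homologous recombination, had 28.8 FPKM in CPE and 73.5 FPKM in SNE by the authors' deposited table (log2 ratio -1.35, q = 0.000706). USP15, which acts on TGF-beta receptor signalling, had 50.3 FPKM in CPE and 48.9 FPKM in SNE by the authors' deposited table (log2 ratio 0.04, q = 0.890). USP34, an enzyme of Wnt signalling with a very long gene, had 40.7 FPKM in CPE and 58.4 FPKM in SNE there (log2 ratio -0.52, q = 0.515). USP5, which takes apart free ubiquitin chains, USP33 and UCHL5 complete the 10 and are described with their groups.

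Among the 11 enzymes of histones and chromatin, 4 were lower in CPE (USP22, BAP1, USP16 and USP27X, the last on the chromatin side after centring), 0 were higher and 7 gave no call, with a median log2 ratio of -0.97. BAP1, the tumour suppressor that removes ubiquitin from histone H2A, had 15.3 FPKM in CPE and 43.4 FPKM in SNE by the authors' deposited table (2.83-fold lower in CPE, q = 0.000706; region chr3:52350335-52444366). USP16, another histone H2A enzyme, had 19.0 FPKM in CPE and 49.5 FPKM in SNE by the authors' deposited table (2.60-fold lower in CPE, q = 0.00194). These enzymes of H2A were lower in CPE by similar folds, while others with overlapping substrates gave no call. USP3 (log2 ratio -0.96, q = 0.215) and USP21 (log2 ratio -0.28, q = 0.605), which also act on histone H2A, were not called in the authors' deposited table. USP36, a nucleolar enzyme, had 26.9 FPKM in CPE and 37.5 FPKM in SNE there and was not called (q = 0.387). USP42 missed the threshold with a ratio larger than those of several called genes (log2 ratio -1.30, q = 0.0502 in the authors' deposited table). It had 1.21 FPKM in CPE and 2.97 FPKM in SNE, and its q was 0.0159 when adjusted over loci with a symbol. USP49, an enzyme of histone H2B, had 2.44 FPKM in CPE and 2.33 FPKM in SNE by the authors' deposited table (q = 0.912), and USP44 and USP51 were not called either (log2 ratios of -0.51 and -0.97).

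Among the 9 enzymes of DNA damage, the cell cycle and p53, 6 were lower in CPE (USP7 and USP28 on the chromatin side after centring), 0 were higher and 3 gave no call, with a median of -1.12. USP1, which with WDR48 removes ubiquitin from FANCD2 and PCNA, had 17.4 FPKM in CPE and 61.1 FPKM in SNE by the authors' deposited table (3.52-fold lower in CPE, q = 0.000706; region chr1:62901968-63153969). USP10, an enzyme of p53 that binds the stress granule protein G3BP1, had 14.8 FPKM in CPE and 48.0 FPKM in SNE by the authors' deposited table (3.24-fold lower in CPE, q = 0.00361). OTUD5 was lower in CPE to a like degree, at 5.49 FPKM in CPE and 19.4 FPKM in SNE by the authors' deposited table (3.53-fold, q = 0.0324). USP28, which stabilises MYC, had 16.5 FPKM in CPE and 35.7 FPKM in SNE there (2.17-fold lower in CPE, q = 0.00194). The group reached from these soluble transcripts to the most chromatin-sided member of the family. USP45, which acts on the nuclease partner ERCC1, had 34.5 FPKM in CPE and 30.002 FPKM in SNE by the authors' deposited table, the highest ratio of the 54 (log2 ratio 0.20, q = 0.698), and 80.1% of loci with 1 symbol had a lower ratio. The authors' deposited table gave no call for USP37, an enzyme of cyclin A, and USP47, at log2 ratios of -0.25 and -0.73.

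Of the 9 enzymes of the proteasome, free chains and quality control, 4 were lower in CPE (UCHL1, USP5, USP13 and USP30, all still on the soluble side after centring), 0 were higher and 5 gave no call, with a median of -1.18. USP5 had 19.7 FPKM in CPE and 69.4 FPKM in SNE by the authors' deposited table (3.52-fold lower in CPE, q = 0.000706). USP30, which sits in the outer mitochondrial membrane and opposes mitophagy, had 4.77 FPKM in CPE and 17.9 FPKM in SNE there (3.75-fold lower in CPE, q = 0.000706). USP14 and UCHL5, which bind the proteasome, gave no call. PSMD14, the metalloprotease of the proteasome lid, is outside the name rule and was chosen after its values were seen. It was 2.50-fold lower in CPE at 38.4 FPKM in CPE and 96.1 FPKM in SNE by the authors' deposited table (log2 ratio -1.32, q = 0.00251). That ratio is close to the one of USP14, and no difference between them was tested. USP14 had 12.3 FPKM in CPE and 27.7 FPKM in SNE by the authors' deposited table (log2 ratio -1.18, q = 0.101, or 0.0338 when adjusted over loci with a symbol). The same adjustment also gave calls to USP42, USP46, OTUD6B, USP2, USP19 and USP33, so USP14 is not particular in this. UCHL5, which also binds the INO80 chromatin remodeller, had 37.0 FPKM in CPE and 49.7 FPKM in SNE by the authors' deposited table (log2 ratio -0.43, q = 0.493). Log2 ratios of -0.86, -0.89 and 0.03 stood in the authors' deposited table for USP19, OTUD6B and USP25, without a call.

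Of the 8 enzymes of endosomes, membranes and trafficking, 2 were lower in CPE (USP12 and STAMBP, both still on the soluble side after centring), 0 were higher and 6 gave no call, with a median of -0.81. STAMBP, a metalloprotease that works on receptors at endosomes, had 13.1 FPKM in CPE and 36.0 FPKM in SNE by the authors' deposited table (2.76-fold lower in CPE, q = 0.000706). USP8, its cysteine protease counterpart at endosomes, had 26.3 FPKM in CPE and 40.3 FPKM in SNE by the authors' deposited table and gave no call (log2 ratio -0.61, q = 0.229). USP33, which acts on receptor recycling, had 31.3 FPKM in CPE and 51.9 FPKM in SNE there (log2 ratio -0.73, q = 0.103). The difference between STAMBP and USP8 was not tested. For USP46, USP2, USP32 and USP20 the authors' deposited table gave log2 ratios of -1.26, -0.88, -0.61 and -0.27.

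Among the 9 enzymes of NF-kB, interferon and other signalling, 5 were lower in CPE (CYLD on the chromatin side after centring), 0 were higher and 4 gave no call, with a median of -1.16. This group held the lowest ratio of the family and 3 of the 7 above 0. USP18, which removes the ubiquitin-like modifier ISG15 and is induced by interferon, had 0.825 FPKM in CPE and 4.80 FPKM in SNE by the authors' deposited table, the lowest ratio of the 54 (5.81-fold lower in CPE, q = 0.000706; region chr22:18632666-18660164). That rank rests on a low level in CPE. With a pseudocount of 0.1 the log2 ratio of USP18 was -2.40, still the lowest, but with a pseudocount of 1 it was -1.67, above that of UCHL1 at -1.78. USP41, a near-identical copy of USP18, could share its reads, so the value is uncertain, as is that of USP12, which has processed copies. OTUD1 had 1.03 FPKM in CPE and 4.54 FPKM in SNE by the authors' deposited table (4.42-fold lower in CPE, q = 0.000706). USP38, at 3.47 FPKM in CPE and 11.5 FPKM in SNE, and OTUD7B, at 3.27 FPKM in CPE and 8.34 FPKM in SNE, were lower in CPE too (q = 0.000706 and q = 0.0200 in the authors' deposited table). CYLD, a tumour suppressor that trims the chains that activate NF-kB, had 5.34 FPKM in CPE and 10.3 FPKM in SNE there (1.93-fold lower in CPE, q = 0.0429), the smallest change among the called members. OTUD4 had 8.43 FPKM in CPE and 7.67 FPKM in SNE by the authors' deposited table (log2 ratio 0.14, q = 0.846), and OTUD7A had 0.546 FPKM in CPE and 0.510 FPKM in SNE (q = 0.869). OTUB2 was not called (q = 0.468), and its deposited log2 ratio of -1.16 is the group median. That ratio is the only one of the 54 that differed by over 0.01 from the ratio of the FPKM values, 1.13 in CPE and 3.01 in SNE. On these FPKM values OTUB2 would lie on the soluble side of the centre. The group median would then be that of OTUD7B, -1.35, also on the soluble side.

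The remaining members were not called. Of these 7 (USP24, USP34, USP35, USP40, USP43, USP53 and USP54), whose log2 ratios spanned -0.99 to 0.18 by the authors' deposited table, USP24 and USP34 were the most abundant and had 17.7 FPKM and 40.7 FPKM in CPE, against 34.5 FPKM and 58.4 FPKM in SNE. USP40 was the second highest of the family by ratio, at 13.4 FPKM in CPE and 11.8 FPKM in SNE by the authors' deposited table (log2 ratio 0.18, q = 0.626). Among rows that name several genes, the authors' deposited table gave the row of OTUB1 80.9 FPKM in CPE and 523 FPKM in SNE, that of UCHL3 43.3 FPKM in CPE and 79.5 FPKM in SNE, that of USP9X 68.3 FPKM in CPE and 135 FPKM in SNE, that of USP31 4.86 FPKM in CPE and 7.71 FPKM in SNE, and that of USP4 10.2 FPKM in CPE and 7.20 FPKM in SNE. The first 3 were called higher in SNE, of which those of UCHL3 and USP9X changed sides on centring, and the other 2 were not called. The values of these rows belong to all genes they name.

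**Figure D2:**
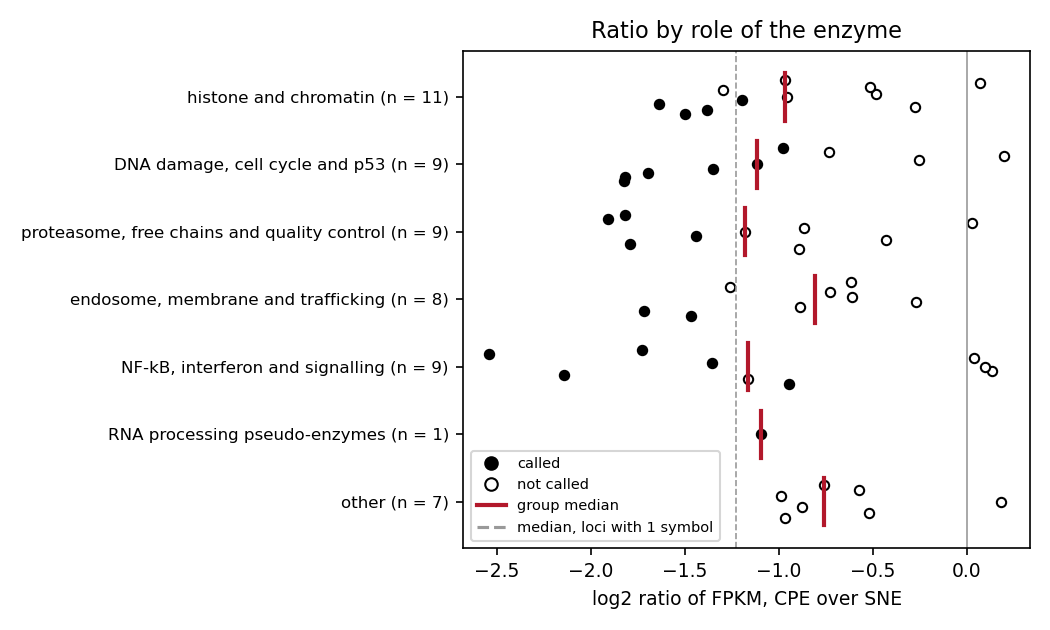
Each point is a deubiquitinase placed by its log2 ratio of CPE over SNE, in rows by role, filled where called; red bars are group medians and the dashed line is the median of loci with 1 symbol, -1.22. Group medians of the deposited ratios lie between -1.18 and -0.76, below 0 and on the chromatin side of the dashed line. The NF-kB median is the ratio of OTUB2, and on the FPKM values of OTUB2 it would be -1.35, on the soluble side of that line. Each of the larger groups spreads over more than the distance between the medians.

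Related enzymes did not share a fraction ratio in several cases. USP16 and USP45 are sister enzymes, yet their log2 ratios of -1.38 and 0.20 lay 1.58 apart in the authors' deposited table. OTUD7B and OTUD7A lay 1.45 apart, though OTUD7A was under 1 FPKM in each fraction. USP11 and USP15, which share their domain layout with USP4, lay 1.39 apart, and USP28 and USP25 lay 1.15 apart. In each of these 4 pairs the member with the lower ratio was called higher in SNE (USP28 only until centring) and the other was not called, which does not show by itself that the pair differs. Other sets lay closer together in the deposited table. USP22, USP27X and USP51, alternative catalytic subunits of the same histone module, had log2 ratios of -1.64, -1.19 and -0.97, at very different levels of 69.4, 0.253 and 0.280 FPKM in CPE and 216, 0.580 and 0.547 FPKM in SNE. USP12 and USP46, which share the activators WDR48 and WDR20, had -1.72 and -1.26, USP5 and USP13 had -1.82 and -1.44, USP33 and USP20 had -0.73 and -0.27, and USP54 and USP53 had -0.76 and -0.57. In the 4 wide pairs the member with the higher ratio had the longer gene (USP45 89.4 against USP16 29.9 kb, OTUD7A 395 against OTUD7B 72.9 kb, USP15 157 against USP11 15.6 kb, USP25 150 against USP28 77.7 kb). Among the closer sets this held for USP13 and USP5, while USP12, USP33, USP54 and USP22 had the longest gene and the lowest ratio of their sets. No difference between genes was tested, since the deposited table has no spread between replicates.

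**Figure D3:**
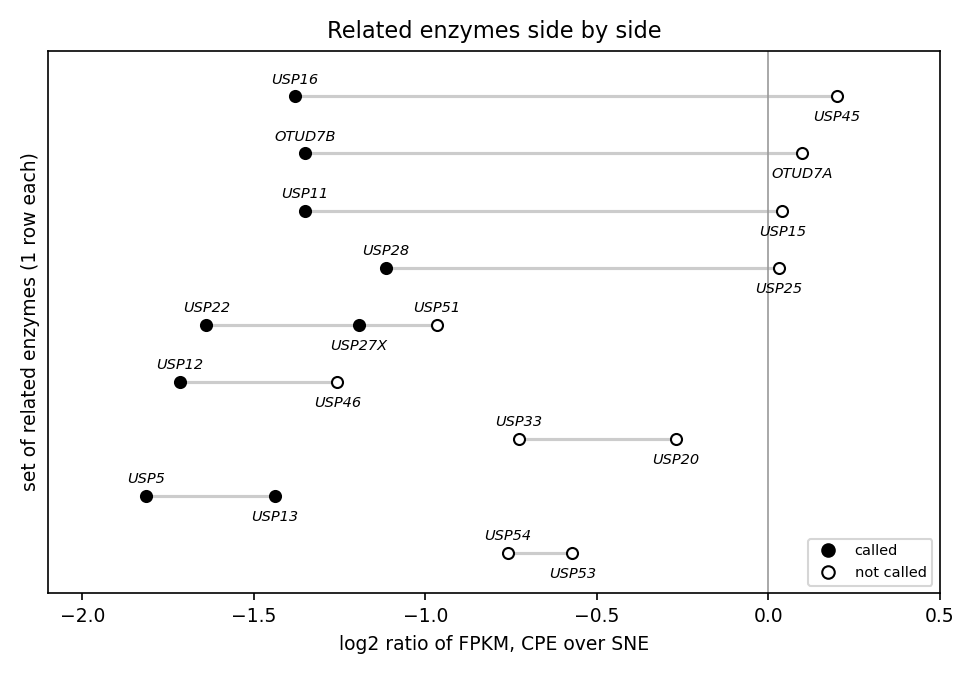
Rows are sets of related enzymes, ordered by the distance between their log2 ratios of CPE over SNE (horizontal axis), filled where called. The top 4 rows each join a called gene at -1.12 or below (USP28 among them, on the chromatin side if ratios are centred) to an uncalled one above 0, the row of USP22, USP27X and USP51 spans 0.67, and the other 4 rows lie within 0.46.

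Longer deubiquitinase genes had higher ratios. Over the 54 genes Spearman's rho of the log2 ratio with gene length was 0.47, with the longest transcript 0.50 and with the highest exon number 0.42, against 0.36, 0.36 and 0.45 over 10300 protein-coding loci with 1 symbol. The members are not independent replicates and these values are descriptions. With mean FPKM rho was -0.04 over the members and -0.20 over the protein-coding loci. Of 16 deubiquitinase genes under 30 kb, 9 were called higher in SNE with a median log2 ratio of -1.27. Of 26 between 30 and 100 kb, 11 were called with a median of -0.98, and of 12 longer genes 2 were called, USP12 and USP13, with a median of -0.57. With FPKM of at least 1 in both fractions the members' medians were -1.38, -0.98 and -0.61 (7 of 11, 11 of 26 and 2 of 11 called). Protein-coding loci with the same FPKM minimum had 74.3%, 57.3% and 28.4% called higher in SNE in these classes, with medians of -1.72, -1.34 and -0.88. The deubiquitinases thus followed the slope of other protein-coding genes at somewhat higher ratios, and that offset was not tested. The members with a single exon, OTUD1 and USP27X, stood at log2 ratios of -2.14 and -1.19 by the authors' deposited table. USP21, at 6.27 kb, was short and yet near 0 (log2 ratio -0.28), and USP18, at 27.5 kb, was the lowest by deposited ratio.

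**Figure D4:**
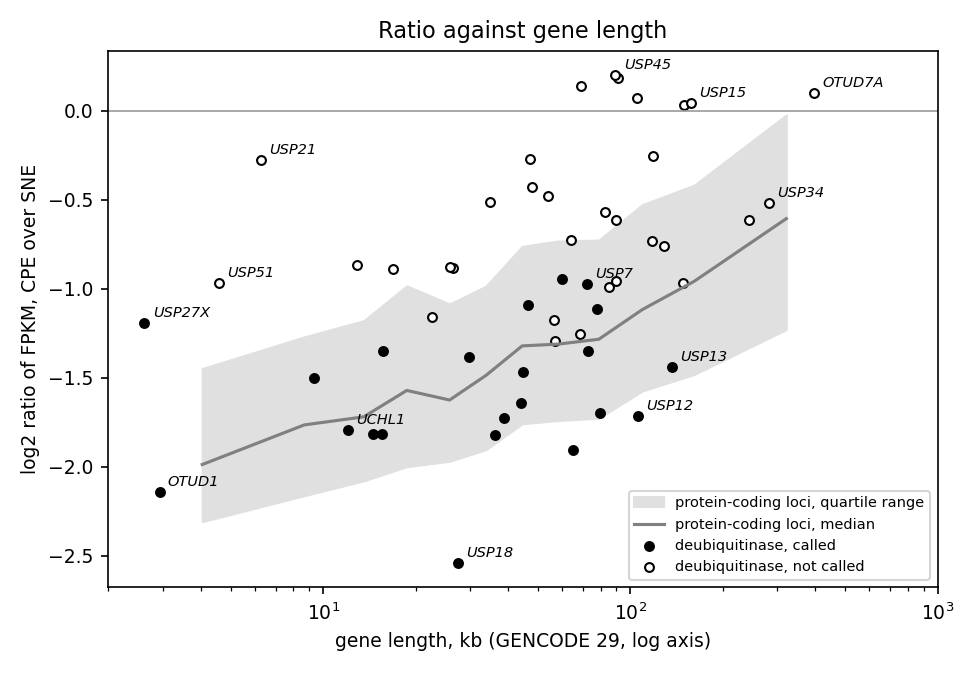
Points are deubiquitinases by gene length in kb (log axis) and log2 ratio of CPE over SNE, filled where called; the line and band are the median and quartiles of protein-coding loci with FPKM of at least 1 in both fractions, in bins of equal size. Points and line climb to the right, with OTUD1 and USP18 lowest and USP45, USP15 and OTUD7A above 0; the filled points USP27X, USP28, USP39, USP7 and CYLD change sides if ratios are centred.

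Genes that work beside the deubiquitinases were counted in 5 lists, to be read against the 39.1% of loci with 1 symbol and 52.4% of protein-coding ones that were lower in CPE. In 4 of the lists the share lower in CPE lay between these backgrounds, so those counts are not results about the lists; in the ubiquitin precursor list it was higher, which was not tested. Of 6 ubiquitin precursor and activating enzyme genes, 6 were lower in CPE and 0 higher. Each stayed on the soluble side after centring, UBA6 only just (log2 ratio -1.23 against a centre of -1.22). UBB, a polyubiquitin gene, had 210.5 FPKM in CPE and 1140.1 FPKM in SNE by the authors' deposited table (5.42-fold lower in CPE, q = 0.000706). Ubiquitin genes have processed copies, so their read assignment is uncertain. The list median was -2.08, beside -0.97 for the deubiquitinases, and the difference was not tested.

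A list of 19 tested genes outside the name rule held other deubiquitinases and related proteins, not all of them active enzymes. Of these, 9 were lower in CPE (2 of them on the chromatin side after centring), 0 were higher and 10 gave no call, with a median of -1.32. PRPF8, the inactive JAMM protein at the heart of the spliceosome, had 96.2 FPKM in CPE and 215 FPKM in SNE by the authors' deposited table, and EIF3H, an initiation factor subunit of the same fold, had 38.9 FPKM in CPE and 115 FPKM in SNE (2.24-fold and 2.95-fold lower in CPE, q = 0.0103 and q = 0.00616). JOSD2, a Josephin protease, and MINDY1 (listed as FAM63A) were 8.05-fold and 3.51-fold lower in CPE in the deposited table (q = 0.000706 and q = 0.00307). MYSM1, a histone H2A metalloprotease named after its value was seen, had 21.9 FPKM in CPE and 9.08 FPKM in SNE by the authors' deposited table and gave no call (log2 ratio 1.27, q = 0.0932).

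Of 21 tested partners of the deubiquitinases, 10 were lower in CPE (1 of them on the chromatin side after centring), 0 were higher and 11 gave no call, with a median of -1.01. G3BP1, the partner of USP10, had 69.4 FPKM in CPE and 239.9 FPKM in SNE by the authors' deposited table, and ENY2, a subunit of the module of USP22, had 35.1 FPKM in CPE and 142 FPKM in SNE (q = 0.000706 for each). SPATA2, which links CYLD to its targets, was 13.7-fold lower in CPE in the deposited table at 0.185 FPKM in CPE and 2.54 FPKM in SNE (q = 0.000706), and FOXK1, a transcription factor that binds BAP1, was 6.90-fold lower (q = 0.00853). WDR48, the activator of USP1, USP12 and USP46, was not called at 13.4 FPKM in CPE and 24.9 FPKM in SNE by the authors' deposited table (q = 0.187).

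Of 9 tested SUMO and NEDD8 proteases, 4 were lower in CPE (1 of them, USPL1, on the chromatin side after centring), 0 were higher and 5 gave no call, with a median of -0.97. SENP6, which trims SUMO chains, had 51.4 FPKM in CPE and 67.9 FPKM in SNE by the authors' deposited table (q = 0.493), while DESI1 had 19.9 FPKM in CPE and 62.1 FPKM in SNE, and DESI2 and SENP2 were 3.93-fold and 3.65-fold lower in CPE (q = 0.000706 for these 3). Of 19 tested substrates and opposing ligases, 8 were lower in CPE (1 of them on the chromatin side after centring), 1 was higher and 10 gave no call, with a median of -1.12. MDM4, a p53 inhibitor that USP7 stabilises, was the exception at 34.2 FPKM in CPE and 16.3 FPKM in SNE by the authors' deposited table (2.10-fold higher in CPE, q = 0.0117). PCNA had 69.6 FPKM in CPE and 299 FPKM in SNE by the authors' deposited table and the histone H2B ligase RNF40 had 59.7 FPKM in CPE and 173 FPKM in SNE, and UBE2N and MYC were 4.90-fold and 4.39-fold lower in CPE (q = 0.000706, except UBE2N at q = 0.00307).

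Called loci without a symbol in the same regions were mostly higher in CPE, as over all regions (16504 higher and 1101 lower). This is thus not a result about the members. The table groups overlapping loci into regions, and the 54 regions of the deubiquitinases held 853 tested loci without a symbol. Of these, 70 were higher in CPE (8.21%), 5 lower (0.586%) and 778 gave no call, beside 9.45% and 0.63% over all 174660 tested loci without a symbol. The 70 had a median of 4.14 FPKM in CPE and 0.585 FPKM in SNE and a median log2 ratio of 2.92. Of the 54 regions, 38 held at least 1 of them. The share of all regions that hold such a locus was not computed, so the 38 are not read as a result about the members. In the 13 regions where the deubiquitinase was the only named locus, 16 of 118 unnamed loci were higher in CPE and 1 was higher in SNE (13.6% and 0.847%), beside 10.9% and 1.53% over all regions with a single tested named locus. The most abundant of the 70, in the region of USP34, had 26.4 FPKM in CPE and 3.49 FPKM in SNE by the authors' deposited table, and in the region of USP25 such a locus had 21.1 FPKM in CPE and 1.76 FPKM in SNE (q = 0.000706 for each). The region of UCHL1 also held such a locus, at 12.2 FPKM in CPE and 1.62 FPKM in SNE in the deposited table (q = 0.00307). Whether an unnamed locus lies in an intron, in an exon or on the other strand could not be read from the table, which gives only the region.

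**Figure D5:**
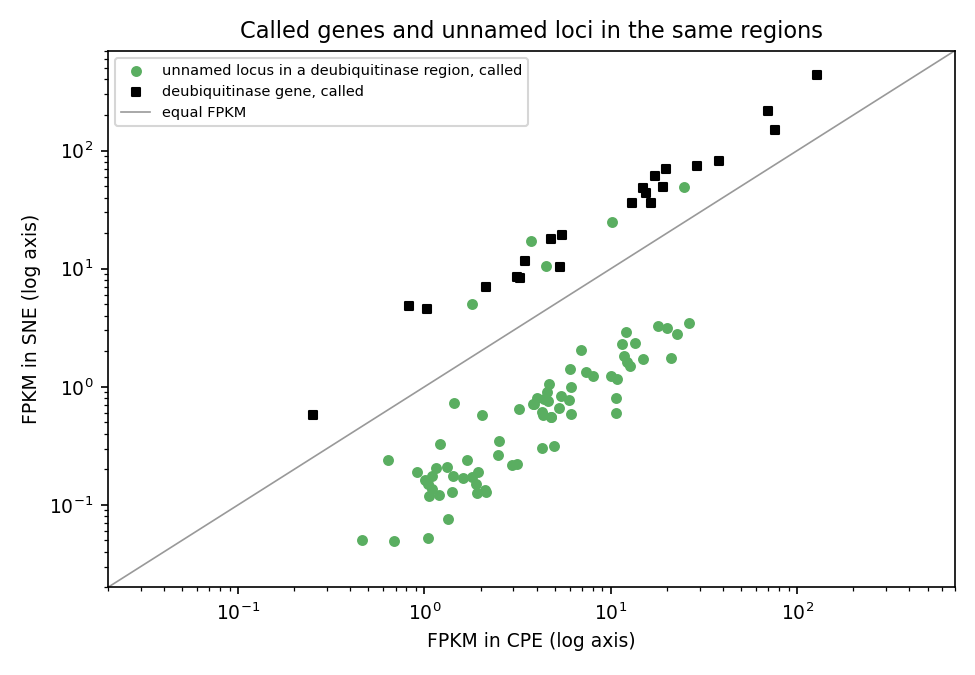
Called deubiquitinase genes (squares) and called unnamed loci in their regions (circles) are placed by FPKM in CPE and in SNE, both on log axes, with a line of equal FPKM. All 22 genes lie above the line and 70 of the 75 unnamed loci lie below it. Over all regions, 16504 called unnamed loci were higher in CPE and 1101 lower. After centring on loci with 1 symbol, the genes USP27X, USP28, USP39, USP7 and CYLD would change sides.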

How the data were processed

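Stranded total RNA libraries of HEK293 nuclei were measured in 10 samples, of which the deposited tables cover CPE (3 samples) and SNE (3 samples). The submitters' processing notes name TopHat2 (alignment), Cuffdiff (expression and tests) and hg19. Their versions, the annotation, the strand setting of the counting and the scaling are not given in the sources used here. Deposited FPKM values are 1 value per group, computed by the authors over its replicates, so no SD or leave-one-out value could be had and depth is unknown. The log2 ratio of CPE over SNE and the p-value and q-value are those of the authors' Cuffdiff test, per the file headers. A call was status OK and q of at most 0.05. The smallest p is 5e-05, which gives q = 0.000706, below which the test does not separate loci.

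Members were chosen by symbol. The members, role lists and pathway lists were chosen with earlier results of these data known. Values were counted, ranked and summarised with Python 3.11.15 and pandas 2.3.3, after the code had been tested on simulated data. Genes were named by a rule: the 10 members of highest mean FPKM, the 10 called members of lowest ratio and the 6 members of highest ratio among members at 1 FPKM or more in each group, the 2 most abundant members of each role list, and in each pathway list the 2 most abundant genes and the 2 called genes of largest absolute ratio. A gene that this rule names is not reported here. Other genes were named after their values were seen. Gene lengths and exon numbers came from GENCODE 29, matched by symbol for 54 of 54 members; its coordinates were not used. Regions are on hg19, counted from 1. A deposited isoform table was not used: of 14208 pairs of FPKM values found once in each table, 86.6% stood under another gene identifier. The DRB and mock samples were not analysed here.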

Additional observations from a re-analysis of the deposited data

How the results depend on the processing

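No paired analysis was possible because the deposited table holds 1 value per group and no replicate columns, and for the same reason no replicate could be left out. The count of 22 deubiquitinases higher in SNE stayed within 1.5 times under a q of at most 0.01 (16), a minimum absolute log2 ratio of 1 and FPKM minimums. It did so too under adjustment over loci with a symbol (29, with USP42, USP46, USP14, OTUD6B, USP2, USP19 and USP33 gained) and with added rows of several genes (25). The count higher in CPE stayed at 0, but a stricter q, a minimum ratio or an FPKM minimum could not have raised it. Removal of antisense genes could change neither count, since no member is an antisense gene. Centring on loci with 1 symbol, with no new test, put 5 called members on the chromatin side (USP27X 0.030, USP28 0.11, USP39 0.13, USP7 0.25, CYLD 0.28) and left 17 on the soluble side. It moved the members' median to 0.26, and the role medians to 0.26 (histone), 0.11 (DNA damage), 0.048 (proteasome), 0.42 (endosome), 0.064 (NF-kB), 0.13 (USP39 alone) and 0.47 (the remaining members). The NF-kB median is the deposited ratio of OTUB2, and on the FPKM values of OTUB2 that median would fall on the soluble side. Among called genes centring put on the chromatin side 2 of the list of other deubiquitinases and related proteins, 1 partner and 1 SUMO or NEDD8 protease. It did the same to the ligase gene RNF168, which with MDM4 made 2 of the substrate list. On a centre of protein-coding loci the members OTUD7B and USP11 would change sides as well. At a q of at most 0.01 the substrate list had 0 genes higher in CPE, so MDM4 lost its call. Pseudocounts of 0.1 and 1 gave medians of -0.94 and -0.83, by construction nearer to 0. With a pseudocount of 1, USP18 was no longer the lowest member (log2 ratio -1.67, beside -1.78 for UCHL1). With FPKM of at least 1 in both fractions the median was -0.96 for histone, -0.73 for endosome and -0.67 for the remaining members, and rho with length was 0.46 over 48 members. Depth is unknown, so whether a gene missed the threshold for want of reads was not tested.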

Other observations

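Rows that resemble deubiquitinase genes by name but are antisense genes or pseudogenes, outside the rule and picked after their values were seen, included calls in both directions. USP46-AS1, an antisense neighbour of USP46, had 2.20 FPKM in CPE and 1.25 FPKM in SNE in the authors' deposited table (1.75-fold higher in CPE, q = 0.000706), while USP46 itself had 6.44 FPKM in CPE and 15.4 FPKM in SNE and was not called (q = 0.0650). The deposited table gave a row that holds USP32P2, a partial copy of USP32, together with CCDC144B and FAM106A 49.2 FPKM in CPE and 16.2 FPKM in SNE (3.04-fold higher in CPE, q = 0.000706), and a row of USP32P3 with FAM106B 0.496 FPKM in CPE and 0.127 FPKM in SNE (3.91-fold higher in CPE, q = 0.00944). USP32 itself had 16.7 FPKM in CPE and 25.5 FPKM in SNE there and was not called (q = 0.335); reads could be shared between these copies. USP27X-AS1 went with its neighbour USP27X, at 0.200 FPKM in CPE and 0.477 FPKM in SNE in the authors' deposited table (log2 ratio -1.26, q = 0.000706). The deposited log2 ratios of USP3-AS1, USP2-AS1 and USP8P1, at 0.92, -0.75 and -1.25, gave no call. The pseudogenes USP12PX and USP12PY had the lowest ratios of these rows by the authors' deposited table, at 0.0274 and 0.0445 FPKM in CPE and 0.270 and 0.332 FPKM in SNE, and gave no call either (log2 ratios -3.30 and -2.90, q = 0.426 and q = 0.0752).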
